A study of Caenorhabditis elegans with 2 samples.

Results

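The binding sites described here are the ZTF-6 sites of young adult Caenorhabditis elegans whose summits lay more than 500 bp from every annotated transcript start, called distal sites below. ZTF-6 is a C2H2 zinc finger protein. Peaks of the 4 thresholded lists that the authors deposited were merged where they overlapped, which gave 700 sites, and the summit of the peak with the highest signal was taken as the position of the site. Of these, 215 sites (30.7%, exact binomial 95% interval 27.3 to 34.3%) were distal and 485 lay within 500 bp of a start. Of all bases of the nuclear chromosomes, 66.0% lay more than 500 bp from every start. The division into distal and near-start sites used only positions and the annotation, apart from the choice of summit, for which it used the peak signal. The authors' thresholds had already decided which peaks were in the lists, those of the replicates included. Signal values and the overlap of the replicate lists are therefore not independent of how the sites were selected.

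All chromatin came from a single group of animals. Strain RW12301 carries the insertion st12301[ztf-6::TY1::EGFP::3xFLAG] on chromosome I, made with CRISPR, and an anti-GFP antibody was used for precipitation. Whole young adult animals of 62 hours were used, after starvation at the L1 larval stage following bleaching, and sonicated chromatin had fragments of 200 to 800 bp. There were 2 biological replicates and no second condition or untagged strain among the samples, so every comparison is between kinds of site or between the replicates. With whole animals, binding in a few cells and weak binding in many cannot be told apart.

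C2H2 zinc fingers are protein folds that commonly contact DNA, each finger reading a few bases. In C. elegans, most regulatory DNA sits close to promoters, because genes are compact and densely packed, and sequence far from any start includes distal enhancers, introns, tandem repeats and, on the X chromosome, the recruitment elements on X (rex sites), at which the dosage compensation complex loads in hermaphrodites to lower X-linked transcription. Many worm transcripts are trans-spliced to a leader, so that an annotated 5′ end can lie downstream of the place where transcription begins.

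Several of the strongest distal sites on the X chromosome shared a sequence. The 8 bases CGCGCAGG, which lie within the MEX motif known from rex sites and are called the MEX core here, stood within 50 bp of the summit, on either strand, at 8 of the 51 distal sites on X (15.7%, 7.02 to 28.6%) and at 0 of the 164 distal sites on the autosomes (upper bound 2.22%). Among sites within 500 bp of a start, 1 of 94 on X (1.06%) and 0 of 391 on the autosomes held it. Over all 145 merged sites on X the share was 6.21%. When the chromosomes were cut into consecutive windows of the same length as this summit window, 85 of 175435 windows on X (0.0485%) and 267 of 817362 on the autosomes (0.0327%) held the core on either strand. The word was chosen after the windows had been read, so these counts are a description and carry no test.

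The 8 windows are shown because their sequences carry this observation, with the core in capitals, each on the strand that reads it forward (RefSeq WBcel235, the build of the files' ce11).
F20B6.9 site, chrX:4209238-4209338, minus strand: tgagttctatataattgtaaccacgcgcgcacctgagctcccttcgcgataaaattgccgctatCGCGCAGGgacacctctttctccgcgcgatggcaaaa
gtr-1 site, chrX:806654-806754, plus strand: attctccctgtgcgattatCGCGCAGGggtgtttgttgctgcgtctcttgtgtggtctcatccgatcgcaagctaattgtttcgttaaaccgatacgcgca
WBGene00014538 site, chrX:11094121-11094221, minus strand: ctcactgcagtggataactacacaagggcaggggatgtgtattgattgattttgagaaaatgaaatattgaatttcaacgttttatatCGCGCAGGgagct
nspc-17 site, chrX:14525863-14525963, minus strand: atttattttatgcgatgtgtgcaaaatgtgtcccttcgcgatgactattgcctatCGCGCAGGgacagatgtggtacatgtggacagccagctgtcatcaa
hlh-29 site, chrX:17544487-17544587, minus strand: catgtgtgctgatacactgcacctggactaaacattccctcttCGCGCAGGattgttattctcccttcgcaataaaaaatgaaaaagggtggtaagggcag
F22H10.2 site, chrX:16682071-16682171, minus strand: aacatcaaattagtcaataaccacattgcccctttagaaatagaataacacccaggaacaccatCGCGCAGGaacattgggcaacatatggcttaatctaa
mom-1 intron site, chrX:6296558-6296658, plus strand: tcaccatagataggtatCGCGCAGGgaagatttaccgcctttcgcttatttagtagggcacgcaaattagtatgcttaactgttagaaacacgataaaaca
Y41G9A.17 intron site, chrX:2997069-2997169, minus strand: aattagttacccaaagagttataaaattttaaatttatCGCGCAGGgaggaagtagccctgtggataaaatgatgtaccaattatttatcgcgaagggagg
The likeness went beyond the core. The base directly before it was T in 8 of 8 windows and the base before that was A in 7. The base directly after it was G in 6 of 8, and the next was A in 6. The middle of the core lay between 3.5 and 41.5 bp from the summit, with a median of 17.5 bp.

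These sites were among the strongest distal sites. The authors' peak signal is the value of their peak caller, whose scale the sources do not give, and it is used to rank and describe peaks. The 8 sites held ranks between 8 and 23 of the 215 distal sites by signal, and all had a peak in all 4 lists. As the word was chosen after the windows had been read, these ranks and the signals below are also descriptions only. The site between genes nearest to F20B6.9, 1803 bp upstream of its start, had a signal of 83.2 in replicate 1 and 101.2 in replicate 2, and 188 in the lists of the series. The gtr-1 site, 3926 bp downstream of that gene's start, had 59.8 in replicate 1 and 102 in replicate 2. The site nearest to hlh-29, a gene for a basic helix-loop-helix protein, had 57.5 and 89.5. Replicate 2 was the higher at each of these, whereas the Y41G9A.17 intron site had 77.9 in replicate 1 and 54.0 in replicate 2. Over the 8 sites the signal ran from 55.5 to 83.2 in replicate 1 and from 54.0 to 102 in replicate 2. The other 43 distal sites on X had medians of 40.6 in replicate 1 and 38.5 in replicate 2, and 8 of those 43 were in both replicate lists. In the lists of the series the lowest signal with the core was 132, and the median of the 40 sites on X without it that had a peak there was 76.4, so the groups overlapped only through the strongest sites without the core, which reached 216.

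Their distances to the nearest start ran from 732 to 4102 bp. Of the 8, 6 were intergenic, 1 lay in an intron of mom-1, whose product acts in the secretion of Wnt signals, and 1 in an intron of Y41G9A.17. GC content was between 36.6 and 52.5%. Only the window near hlh-29 occurred again in the genome, with 1 further copy, within 10000 bp on the same chromosome. The only near-start site with the core, 301 bp from the start of C18A11.13, had a signal of 55.9 in replicate 1 and 58.8 in replicate 2.

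Most copies of the core carried no site. X held 95 of them and the autosomes 279, or 5.36 and 3.38 per megabase. On X, 57 lay more than 500 bp from any start, and 9 were within 50 bp of the summit of a distal site. On the autosomes, 182 lay more than 500 bp from starts and 0 were within 50 bp of a site. In the longer ranked lists of the replicates, peak summits lay within 50 bp of 27 of the 95 on X and of 42 of the 279 on the autosomes. The share of all genome positions this close to a ranked summit is not given here, so these counts have no background beside them. Whether the 8 sites coincide with known rex sites was not checked here. With up to 1 of the 8 bases changed, the contrast was smaller: 9 of 51 distal windows on X and 10 of 164 on the autosomes matched, against 6 of 94 and 42 of 391 near starts, and 1.28% of all genome windows.

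**Figure D1:**
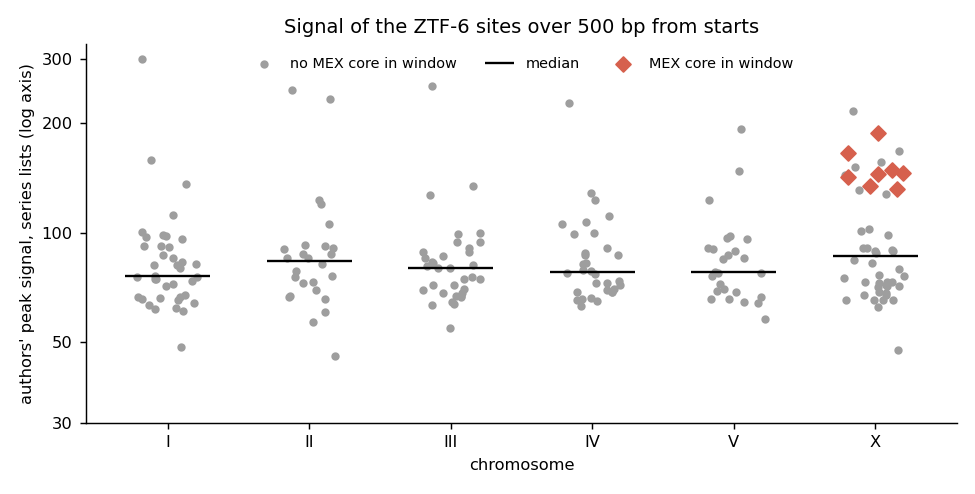
The authors' peak signal in the lists of the series (log axis) by chromosome, for each of the 205 distal sites with a peak in those lists, with the median of each chromosome as a bar and the sites whose summit window holds the MEX core as diamonds. All 8 diamonds are on X, at signals from 132 to 188.

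X also held more of the strong distal sites than its share of sites. Distal sites made up 35.2% of the 145 merged sites on X (27.4 to 43.5%) and 29.5% of the 555 on the autosomes, a difference within the counting interval. Of the distal sites, 23.7% were on X, which has 18.9% of the sequence more than 500 bp from starts. A signal of at least 100 was reached by 17 of 51 distal sites on X (33.3%) and by 22 of 164 on the autosomes (13.4%). All 8 sites with the MEX core were among the 17, and of the 43 distal sites on X without it 9 (20.9%) reached 100. Near starts the order of X and autosomes was the other way, at 18 of 94 on X (19.1%) and 96 of 391 on the autosomes (24.6%). Among the 20 strongest distal sites 11 were on X, and 6 of those held the core. The median signal in the lists of the series was 86.2 on X (48 sites) and 78.5 on the autosomes (157 sites), so the sets differed at the top of the range more than in the middle. Chromosome V had the fewest distal sites per megabase of such sequence, at 2.16, and X the most, at 4.09.

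Besides X, the strongest distal sites were spread over the autosomes and mostly lay between genes. The strongest, 579 bp upstream of the long non-coding RNA gene M04F3.7, had a signal of 156 in replicate 1 and 145 in replicate 2, and 301 in the lists of the series. The second, 530 bp upstream of K12H4.5 on chromosome III, had 119 in replicate 1 and 136 in replicate 2. It lay close to the distance limit, as did the third, 523 bp upstream of Y62F5A.12 on chromosome II, with 122 and 131. The fifth, with 105 in replicate 1 and 125 in replicate 2, lay in an intron of cmk-1, which encodes a calcium/calmodulin-dependent protein kinase, 3244 bp upstream of the start of ccm-2. A site in an exon of linc-128, 589 bp downstream of its start, had 113 and 79.6 and was the strongest in any exon. Of the other sites among the 20 strongest, that near F40E3.3 had 93.4 in replicate 1 and 71.7 in replicate 2, and that near M01A12.4 had 75.3 and 51.7. Replicate 2 was the higher at the remaining 4. These lay near F55G7.5 on X with 75.8 in replicate 1 and 89.7 in replicate 2, near T27A8.8 on X with 70.2 and 84.7, near the gene WBGene00014778 on chromosome V with 71.7 and 83.5, and near C36E6.8 on X with 59.6 and 82.2. The window of the C36E6.8 site had 80 further copies, all within 10000 bp. All 20 of the strongest distal sites had a peak in both replicate lists, and 18 of them were intergenic.

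Windows of these sites are shown for the run of CT or GA repeats in the K12H4.5 and linc-128 sites, in capitals. The window at the cmk-1 intron is shown for its tandem repeat. There the capitals mark a recurring run of 8 bases, and other runs of 8 bases recur as often.
K12H4.5 site, chrIII:8043907-8044007, plus strand: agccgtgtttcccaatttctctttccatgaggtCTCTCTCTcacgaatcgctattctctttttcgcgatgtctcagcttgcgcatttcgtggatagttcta
linc-128 site, chrV:1151445-1151545, plus strand: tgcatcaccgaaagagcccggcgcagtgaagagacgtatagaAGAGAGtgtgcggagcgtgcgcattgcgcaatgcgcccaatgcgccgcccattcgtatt
cmk-1 intron site, chrIV:1831334-1831434, plus strand: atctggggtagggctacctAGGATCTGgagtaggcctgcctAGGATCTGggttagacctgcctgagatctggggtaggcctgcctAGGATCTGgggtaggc

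Of all 2080 six-base words counted on both strands, GAGAGA, followed by AGAGAG, exceeded their share of the genome by the most percentage points. GAGAGA stood in 22.8% of distal windows (17.4 to 29.0%), in 15.9% of near-start windows and in 5.18% of genome windows. For AGAGAG the shares were 21.4%, 10.5% and 4.22%. The words overlap, and at least 1 of the pair was in 61 distal windows (28.4%), 87 near-start windows (17.9%) and 6.96% of genome windows. GAGCGC came next, at 12.1% of distal, 15.3% of near-start and 1.31% of genome windows. CGTCTC was in 13.5%, 11.1% and 2.72% of these windows. ACGCAG was in 12.6% of distal and of near-start windows and 1.91% of the genome. None of the 8 windows with the MEX core held either GA word. On X, 14 of the other 43 distal windows held at least 1 of them, as did 47 of 164 on the autosomes. Of the 170 distal windows not found again in the genome 51 held at least 1, and of the 45 found again 10 did, among them all 5 windows of the satellite with a GA word in its unit, described below.

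Of 11 words of known elements that were counted, the GA repeat, the A box core, the E-box and the GC box were more frequent in distal windows than in the genome, and the other 7 were not. The B box core GTTCGANNC, part of the internal promoter of tRNA genes read by RNA polymerase III, was in 1 of 215 distal windows (0.465%), against 64 of 485 near-start windows (13.2%) and 0.749% of the genome. The A box core TGGCNNAGT was in 3.72% of distal, 6.80% of near-start and 0.927% of genome windows. The E-box CACGTG was in 4.65%, 4.54% and 1.67%, and the GC box GGGCGG in 5.58%, 9.48% and 1.60%. AGATAA, the letters of a GATA factor site, stood in 1.40% of distal windows and 5.88% of genome windows, and TATAAA in 5.12% and 11.2%. TTTTCAG, the letters of the splice acceptor, stood in 5.12% and 10.8%, and a run of 8 A in 3.26% and 12.5%. TGACGTCA was in 0 distal windows (upper bound 1.70%) and 0.552% of the genome, and TGACTCA in 0.465% and 0.899%. No distal window matched an annotated tRNA, snRNA or rRNA gene over at least 50 bp. Some distal windows were nonetheless grouped by similarity with near-start windows at tRNA genes, as described below. Near starts 112 windows matched a tRNA gene and 12 an snRNA gene. The distal windows that matched a small RNA gene were 2 with a snoRNA and 1 with a miRNA.

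Base composition also differed between these kinds of window. The summit windows of distal sites, 50 bp to each side, had a median GC content of 48.5% (quartiles 41.6 and 54.5%), against 51.5% near starts and 34.7% over 992797 consecutive windows of the genome. Only 14 of the 215 distal windows were below the genome median. The part of composition in the word shares was not tested.

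A second trait of distal sites was repeated sequence. The sequence 100 bp to each side of the summit was found again in the genome, at 90% identity or more over at least 80% of its length, at 45 of 215 distal sites (20.9%, 15.7 to 27.0%) and 21 of 485 near-start sites (4.33%). Over all merged sites the share was 9.43%. No such share is given here for genome sequence more than 500 bp from starts, so these values compare kinds of site only. More than 100 further copies were found for 17 distal windows and 3 near-start windows, up to 1406. At 9 of the 45 distal sites all copies lay within 10000 bp of the site, as in a local array. The share was higher in each bin of greater distance: 9.68% of the 62 sites at 501 to 1000 bp, 15.1% of 73 at 1001 to 2000 bp, 33.3% of 69 at 2001 to 5000 bp and 45.5% of 11 sites beyond. Median signal in the lists of the series was 86.8 at the 42 repeated windows with a peak there and 77.5 at 163 others. The sources do not say how reads that match several places were treated, so the signal of 1 copy and of its family cannot be told apart.

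Windows were grouped by similarity, joining any that aligned over at least 50 bp. Of the distal sites, 55 (25.6%) fell in a group with at least 1 other site, against 179 near-start sites (36.9%). The group with the most distal sites had 7 of them and 4 near starts. The 3 distal members shown share a run of 49 identical bases, in capitals. It was found within 100 bp of the summit at 4 of the 7 distal and 1 of the 4 near-start members.
WBGene00023318 site, chrII:4048003-4048103, plus strand: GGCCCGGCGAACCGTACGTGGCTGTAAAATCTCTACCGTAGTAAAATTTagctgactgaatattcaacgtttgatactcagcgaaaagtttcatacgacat
WBGene00014975 site, chrIV:16845515-16845615, plus strand: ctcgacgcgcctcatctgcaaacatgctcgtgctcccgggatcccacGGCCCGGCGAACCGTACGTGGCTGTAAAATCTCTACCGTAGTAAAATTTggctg
zip-11 site, chrIV:3313515-3313615, minus strand: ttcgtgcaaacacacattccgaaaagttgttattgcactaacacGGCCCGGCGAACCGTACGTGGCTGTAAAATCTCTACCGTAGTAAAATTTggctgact
The strongest distal site of all, near M04F3.7, belongs to this group. So do the WBGene00023318 site, 1076 bp from a pseudogene start with 95.2 in replicate 1 and 136 in replicate 2, and the weaker WBGene00014975 site with 67.8 and 56.0. The lowest in the lists of the series, at 74.4, was in an intron of mod-5, a serotonin transporter gene, with 48.9 in replicate 1 and 22.6 in replicate 2. The B0511.11 site was next at 75.9, with 31.3 and 42.6, so the replicates ranked this pair in opposite order. The near-start members included the site 272 bp from the start of mog-4, with 176 and 182. Most of these windows met the copy rule nowhere else, and the highest number of further copies was 7.

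The next group had 6 distal and 3 near-start sites, with 24 to 524 further copies at the distal ones, and consists of a repeat made of paired GAA and TTC triplets. Heat shock factor binds inverted repeats of that kind. The 3 windows shown share 33 bases, in capitals, which were found within 100 bp of the summit at all 6 distal and all 3 near-start members.
fbxa-190 site, chrX:1375263-1375363, plus strand: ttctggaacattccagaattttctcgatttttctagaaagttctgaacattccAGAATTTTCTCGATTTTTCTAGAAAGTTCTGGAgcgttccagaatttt
Y102A11A.11 site, chrX:2057971-2058071, plus strand: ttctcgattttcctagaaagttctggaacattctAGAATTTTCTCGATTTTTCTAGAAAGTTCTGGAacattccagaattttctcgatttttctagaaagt
tir-1 intron site, chrIII:3897252-3897352, minus strand: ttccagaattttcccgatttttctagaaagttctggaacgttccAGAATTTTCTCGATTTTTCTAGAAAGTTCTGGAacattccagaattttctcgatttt
All 6 distal windows of the group held both GAANNTTC and TTCNNGAA, words added after the windows were read, which stood in 7.55% and 7.16% of genome windows. Over all distal windows the shares were 6.98% and 7.44%, against 4.33% and 2.68% near starts.
The fbxa-190 site, 3301 bp downstream of the start of that F-box gene, had 107 in replicate 1 and 106 in replicate 2 and was the strongest distal site on X. The Y102A11A.11 site had 71.0 and 74.5. The other 4 distal members were lower, between 66.8 and 96.2 in the lists of the series, and include a pair in intronic sequence of tir-1, the worm counterpart of the axon degeneration gene SARM1.

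A satellite made up a further group, whose 5 sites were all distal. They had 597 to 1297 further copies, at signals from 81.4 to 134 in the lists of the series.
Y54F10AM.8 site, chrIII:2497933-2498033, plus strand: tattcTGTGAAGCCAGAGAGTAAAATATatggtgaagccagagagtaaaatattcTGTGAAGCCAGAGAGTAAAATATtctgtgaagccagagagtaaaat
WBGene00044209 site, chrV:10449466-10449566, minus strand: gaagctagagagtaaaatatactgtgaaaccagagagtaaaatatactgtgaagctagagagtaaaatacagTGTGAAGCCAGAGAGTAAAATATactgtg
The capitals mark the 23 bases shared by those shown, found within 100 bp of the summit at all 5 sites. The site nearest to Y54F10AM.8 on chromosome III, 9989 bp from its start, had 54.0 in replicate 1 and 81.9 in replicate 2, and a neighbour 1493 bp away had 62.5 and 64.4. A pair 747 bp apart near pqn-21 had 38.9 and 63.8 at the first site, while the second had no peak in the ranked list of replicate 1 and 53.8 in replicate 2.

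Another satellite, on chromosomes II and IV, lay within a group of 4 distal sites and 1 near-start site.
T02H6.11 site, chrII:697284-697384, plus strand: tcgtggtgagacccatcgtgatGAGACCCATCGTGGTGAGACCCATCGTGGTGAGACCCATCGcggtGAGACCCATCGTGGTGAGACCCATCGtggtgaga
21ur-1671 site, chrIV:13922426-13922526, plus strand: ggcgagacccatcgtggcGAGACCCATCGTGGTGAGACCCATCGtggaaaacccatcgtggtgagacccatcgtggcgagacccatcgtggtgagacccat
Here the capitals mark the shared 26 bases, which repeat a shorter unit and were found within 100 bp of the summit at 3 of the 4 distal members and at the near-start member. The other distal member, on chromosome IV, had a GC content of 31.7% and was joined through an alignment with its near-start neighbour. The T02H6.11 site had the most copies of any distal window, 1406, and a signal of 38.0 in replicate 1 and 49.6 in replicate 2. The 21ur-1671 site, named for the nearest piRNA start at 1332 bp, had 12 copies, with 51.6 and 55.9, and was the only distal member of this group with a peak in all 4 lists.

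Other groups of similar windows had members on both sides of the distance limit. A group of 19 sites had 5 distal members, each 523 to 2777 bp from a start, and 14 near starts, among them sites at rps-24 and spd-5. Its distal members had no further copy under the copy rule, and 56.2 to 87.6% of their bases within 100 bp of the summit were in lower case, the mark of repeats, in the RefSeq sequence, against a median of 19.4% over all distal sites. A group of 13 sites had 4 distal members, with signals from 111 to 158, and 9 near starts. A group of 15 sites had 3 distal members, near srt-52, F48F7.5 and tpra-1. Its near-start members included several whose nearest start was that of a tRNA gene. Members were joined by alignments directly or through another member, and the 3 distal windows themselves matched no tRNA gene.

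**Figure D2:**
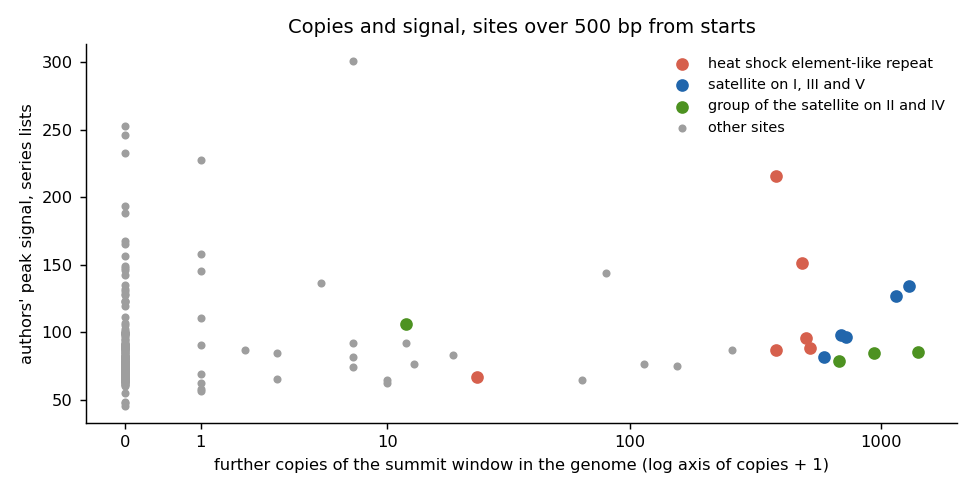
Authors' peak signal in the lists of the series against the number of further copies of the sequence 100 bp to each side of the summit, on a log axis of copies + 1, for the 205 distal sites with a peak in the lists of the series. Most sites sit at 0 copies, and the heat shock element-like repeat and the groups of both satellites fill the right side, up to 1406 copies, at signals mostly under 150.

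By annotation, distal sites were mainly intergenic. Intergenic summits made up 122 of 215 (56.7%, 49.8 to 63.5%), against 48.7% of near-start sites and 32.0% of all bases more than 500 bp from starts. Introns held 63 (29.3%, 23.3 to 35.9%), against 13.8% near starts and 36.8% of such bases. Exons of any kind held 30 (14.0%), of which 21 were coding (9.77%, 6.15 to 14.5%), against 3.92% near starts and 25.4% of such bases. Non-coding exons held 4 distal sites, whereas near starts they held 141 of 485 (29.1%). The median signal in the lists of the series was 87.0 at 118 intergenic, 75.1 at 60 intronic and 67.4 at 19 coding exon sites, with ranges that overlapped.

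**Figure D3:**
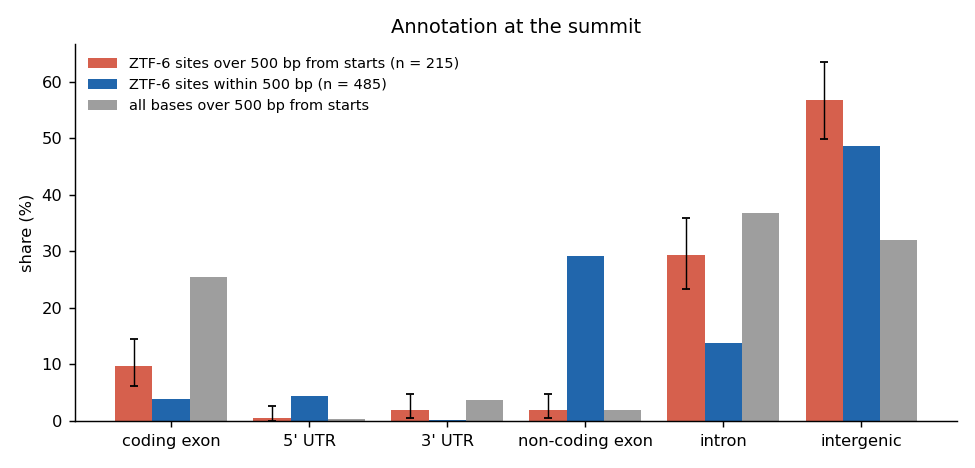
Share of summits in each annotation class for the 215 distal sites, with exact binomial 95% intervals, beside the 485 sites within 500 bp and all bases more than 500 bp from starts. Intergenic sequence holds 56.7% of distal sites and 32.0% of such bases, and coding exons 9.77% and 25.4%.

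Among the 122 intergenic sites, 79 lay upstream of the nearest start and 43 beyond the gene it belongs to. The genes on either side were divergent at 32, convergent at 27 and in the same direction at 63. The gap that held the site had a median of 4005 bp. An annotated transcript end lay within 500 bp of 44 distal summits (20.5%). The matching shares of near-start sites and of genome sequence more than 500 bp from starts are not given here. The orientations and the count near transcript ends therefore have no background beside them and do not show a trait of these sites.

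The distal sites had a median distance of 1502 bp to the nearest start and 2008 bp to the nearest protein-coding start. The farthest, at 10014 bp, lay in a coding exon of pks-1 on X, a gene for a polyketide synthase, with 62.8 in replicate 1 and 37.8 in replicate 2. The sites next in distance were those of the satellite near Y54F10AM.8, at 9989 and 8496 bp, and sites upstream of nhr-1 (8299 bp) and nhr-71 (7658 bp), both genes for nuclear hormone receptors on X. Just outside the limit were the sites near tlk-1 at 502 bp and near F46H5.2 and B0205.9 at 503 bp, with signals of 81.4, 90.7 and 67.5. Just inside it were those near duo-3 at 500 bp, Y56A3A.7 at 496 bp and R10E11.10 at 495 bp, with 62.8, 81.6 and 103. The values on either side overlapped.

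The 63 intronic sites lay in 57 genes. The strongest were those in cmk-1, mom-1 and Y41G9A.17, described above. An intron or introns of pqn-41, which encodes a glutamine-rich protein, held 3 sites over 5182 bp, with 50.8, 40.1 and 33.5 in replicate 1 and 39.6, 39.0 and 36.9 in replicate 2. At trp-4, a channel gene of mechanosensory neurons, and mnk-1, a kinase gene, 2 intronic sites and 1 in a coding exon lay within 5183 and 4652 bp. These runs had modest signal, from 65.3 to 94.1 in the lists of the series. In all, 35 distal sites (16.3%) fell into 16 runs in which neighbours were at most 5000 bp apart, a count given without a background. In coding exons the strongest sites were in pks-1, dos-3 and plin-1. At the 3′ end, sites lay in the untranslated regions of alh-4, mlc-1 and rsa-1, of which the alh-4 site, with 34.6 in replicate 1 and 40.2 in replicate 2, was 537 bp upstream of the start of atp-4, an ATP synthase gene.

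Gene lists were counted by the nearest protein-coding start, beside the percentage of protein-coding genes each list holds. None of the 81 cytosolic ribosomal protein genes (0.406% of genes) was nearest to a distal site, whereas 11 near-start sites (2.27%) had 1 as nearest. The count of distal sites was also 0 for aminoacyl-tRNA synthetases (0.160% of genes) and for histones (0.360%), against 3 and 4 near-start sites, and for vitellogenin and germline granule genes (0.0651%), against 1. Respiratory chain (0.195% of genes), translation factor (0.190%), heat shock (0.110%) and collagen (0.781%) lists had 1 distal site each, or 0.465% of distal sites, nearest to atp-4, eif-3.G, hsp-1 and col-180. Near starts these lists had 6, 6, 3 and 5 sites. With 0 or 1 distal site a list, the counts give no direction relative to the share of genes. Chemoreceptor genes, which make up 6.55% of protein-coding genes, were nearest to 4 distal sites (1.86%) and 8 near-start sites (1.65%). F-box genes, which make up 1.61% of protein-coding genes, were nearest to 2 distal sites (0.930%), at fbxa-190 and fbxb-58, and 0 near-start sites.

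The transcription factor list held only genes whose names begin with nhr-, ceh-, ztf- or hlh-, so transcription factors with other names were not counted. It was nearest to 9 distal sites (4.19%) and 7 near-start sites (1.44%), and makes up 1.91% of protein-coding genes. The strongest was the hlh-29 site with the MEX core. The site 599 bp upstream of nhr-48 had 46.5 in replicate 1 and 54.9 in replicate 2. That near nhr-88 had 50.8 and 34.7. A site in an intron of hlh-30, which encodes the worm TFEB factor of lysosome and autophagy genes, had 53.2 in replicate 1 and 10.2 in replicate 2, so it was present mainly in replicate 1. The nearest start does not show which gene, if any, a site acts on. Distances varied within the list. The sites at nhr-1 and nhr-71 were 8299 and 7658 bp from the start, and that at nhr-141 was 1042 bp away. The lengths of the gaps beside these genes were not measured.

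Overlap of the replicate lists lay mainly at strong sites. Thresholded peaks of both replicates overlapped 33 of 215 distal sites (15.3%, 10.8 to 20.9%) and 80 of 485 near-start sites (16.5%), which is close to the share over all merged sites, 16.1%. The list of replicate 1 alone held a further 36 distal sites and that of replicate 2 a further 43, and 103 (47.9%) were in neither. Of the 50 strongest distal sites 32 were in both replicate lists, and of the other 165 only 1 was. The ranks rest mostly on the series lists, which derive from both replicates, so rank and overlap are not independent measures. On X, 16 of 51 distal sites were in both (31.4%), against 17 of 164 on the autosomes (10.4%). All 8 sites with the MEX core were among the 16, and of the 43 distal sites on X without it 8 (18.6%) were in both. Near starts the order was the other way, at 10 of 94 on X (10.6%) and 70 of 391 on the autosomes (17.9%).

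In the longer ranked lists, 211 distal sites had a peak in replicate 1 and 215 in replicate 2. Their signal in replicate 1 ran from 16.6 to 156 with a median of 39.3, and in replicate 2 from 10.2 to 145 with a median of 41.0. The log2 ratio of replicate 1 over replicate 2 had a median of -0.04 and an SD of 0.61 over sites, and 24 sites (11.4%) differed by more than 2-fold. Across sites, Spearman's rho between the replicates was 0.209 and Pearson's r of log2 signal was 0.389 (n = 211), close to 0.231 and 0.413 for near-start sites (n = 463). Among distal sites rho was 0.431 over windows found again in the genome (n = 43) and 0.132 over the others (n = 168). Among the 33 sites in both lists, which were selected by a threshold in each replicate, it was 0.581. Sites share libraries and are not replicates, so these are descriptions.

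**Figure D4:**
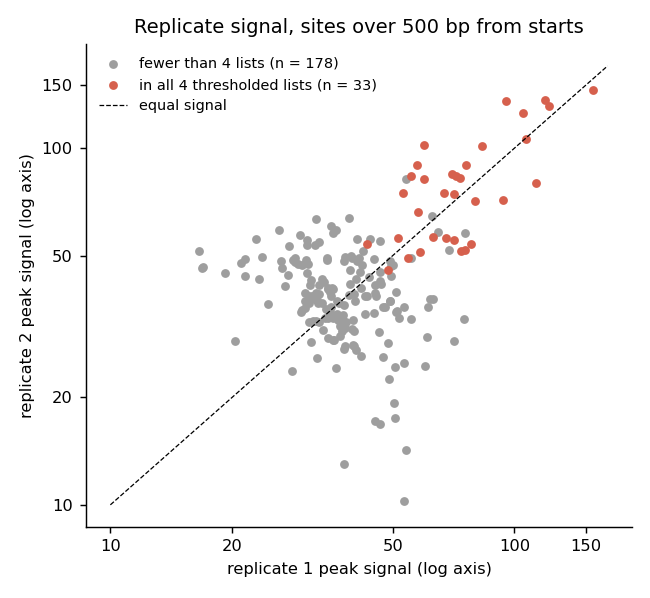
Peak signal in replicate 1 and replicate 2 (log axes) for the 211 distal sites with a peak in both ranked lists, with the 33 sites in all 4 thresholded lists in red and the line of equal signal dashed. The red points follow the line up to 156 and 145, and the others form a cloud with no clear trend.

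The replicates also differed in the authors' q-value. At a q-value of at most 0.05, 39 of 69 peaks with distal summits passed in the list of replicate 1 (56.5%) and 0 of 74 in that of replicate 2, where 0.559% of near-start peaks did. In the conservative list of the series 64 of 167 such peaks passed (38.3%), against 40.9% of near-start peaks. The read depth behind each list is unknown.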

How the data were processed

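ChIP-seq peak lists of 2 biological replicates were analysed. Per the labels, positions are on ce11. The authors deposited, for each replicate and for the series, ranked and thresholded peak lists. The deposited lists give a signal value per peak, the authors' q-value and irreproducible discovery rate as −log10 values, and a summit offset. The aligner, the peak caller, and the treatment of reads that match several places are not given in the sources. Depth is unknown, so no interval was computed for a peak's signal. Signal differed in scale between the series and replicate lists (301 in the series, 156 and 145 in the replicates at the strongest distal site). The choice of summit and the ranks used the highest signal over the lists, which at 10 distal sites, found in replicate lists only, was a replicate's value (28.2 to 54.0). Medians were taken over sites with a peak in the lists of the series, 205 of the distal ones.

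The 4 thresholded lists were merged at 1 bp of overlap. Distances and classes came from Ensembl release 115 and sequence from RefSeq WBcel235. A replicate's signal at a site is its highest overlapping peak in that replicate's ranked list. Copies were sought with blastn 2.17.0 (E-value at most 1e-10) and groups of similar windows with networkx 3.6.1 (E-value at most 1e-05). Words were counted on both strands from 50 bp before to 50 bp after the summit, and copies were sought of the sequence 100 bp to each side. Python 3.11.15 and scipy 1.17.1 gave exact binomial (Clopper-Pearson) intervals at 95%, which cover counting error only. The functions were tested on simulated data. Sites named were drawn from the 20 strongest, the 5 farthest, those next to the distance limit, the strongest of each class and members of the largest groups; others were named after their values were seen. The members, lists and words were chosen with earlier results of these data known.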

Additional observations from a re-analysis of the deposited data

How the results depend on the processing

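Most alternatives left a share within its counting interval. The exceptions follow, with values of the correlation and of GC content, for which no interval is given here. The distal share was 46.4% at over 200 bp, 21.9% at over 1000 bp, 57.7% with starts of protein-coding transcripts only, and 26.6% when measured from the edges of the merged interval. With protein-coding starts only, distal sites were 43.1% intergenic, 22.8% intronic and 34.2% exonic, and 13.6% were repeated in the genome. In the conservative list alone, 21.2% of distal sites were in both replicate lists and the rank correlation of the replicates was 0.379. It was 0.581 over the thresholded lists only, and 0.132 without sites found again in the genome, against the reported 0.209. Using the list of either replicate alone, each of which keeps its own stronger sites, gave ranges of 64.7 to 71.6% intergenic, 18.9 to 26.5% intronic and 8.82 to 9.46% exonic, 43.2 to 47.1% in both replicate lists, 23.5 to 29.7% repeated in the genome, and 0.685 to 0.731 for the rank correlation; for the distal share it was 29.2 to 32.1% and for the median GC content 47.5 to 49.5%. Copies sought with 50 bp to each side raised the repeated share to 27.4%, and GC content over 100 bp to each side had a median of 46.8%. Without sites found again in the genome, a setting chosen after seeing the data, the distal share was 26.8% and the repeated share 0% by construction. For the shares, the other alternatives, among them merging at 50 bp of overlap and leaving out piRNA starts, stayed within the counting interval of the reported value. The rank correlation was between 0.163 and 0.282 under the alternatives not named for it. The count of X sites with the MEX core was 7 to 9 under every setting tried. Distal shares exceeded genome shares for 4 of the 11 words at 50 bp and at 100 bp to each side. No paired analysis was possible because the series has a single group. Unknown depth and a count of 8 sites limit what the X comparison can show.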

Other observations

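The ranked lists of the series held 94 peaks with an irreproducible discovery rate of at most 0.01 that overlapped no thresholded peak. Of these, 85 (90.4%) had summits more than 500 bp from every start, 15 of them on X. Their median signal was 125, and 14 exceeded the highest distal site of the thresholded lists. The highest, between genes on chrX:15810945-15811214 and 857 bp from the nearest start, had a signal of 3566. The MEX core lay within 50 bp of the summit of 0 of the 15 peaks on X and 0 of the 70 on the autosomes. An annotation file named in the deposited file lists as a source of the thresholded lists was not used here.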
